A study of Mus musculus with 5 samples.

Results

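Heat shock proteins are molecular chaperones, and 10 of their genes are described here across naive and primed mouse pluripotent cells: Hspa1a, Hspa1b, Hspa8, Hspa5, Dnajb1, Hspb1, Hsp90aa1, Hsp90ab1, Hspd1 and Hspe1. They were taken by symbol from an expression table of 23951 genes, and all 10 were found. They were chosen by family and with their measured FPKM in these libraries already seen, so their levels and differences are given as a description. RNA was sequenced from E14 embryonic stem cells (ESCs), which represent the naive state of pluripotency, and from ESC-derived epiblast stem cells (EpiSCs), which represent the primed state, to study bone morphogenetic protein (BMP) signalling in both. One ESC group was kept on gelatin with LIF (leukaemia inhibitory factor) and serum, and the other with LIF and 10 ng/ml BMP-4 in basal medium, for a time that the labels do not state. All EpiSCs grew in N2B27 medium on serum-coated plates with FGF2 at 12 ng/ml and Activin A at 20 ng/ml. They were untreated, or BMP-4 was added at 10 ng/ml, in one group for 1.5 h and in the other for 24 h. Each of the 5 groups held 1 library, so no difference below has a replicate check and no p-value is given.

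Chaperones bind unfolded stretches of other proteins and help them to fold, and they work in families. HSP70 proteins hold exposed hydrophobic segments in a cycle of ATP hydrolysis that J-domain proteins such as Dnajb1 stimulate, and HSP90 acts later on partly folded clients such as kinases and steroid receptors. Small heat shock proteins such as Hspb1 hold unfolding proteins without ATP, and the chaperonin Hspd1 with its lid Hspe1 encloses proteins inside mitochondria. Heat and other insults switch on part of these genes through heat shock factor HSF1, which binds repeated units of the letters GAA in alternating orientation. Stress in the endoplasmic reticulum (ER) acts on Hspa5 through ER stress elements.

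The letters before the start of these genes are shown because those routes are read from such letters. RefSeq promoter windows of the GRCm38.p6 build were matched for 7 of the 10 genes, 9 windows in all, and Hspa8, Hsp90aa1 and Hsp90ab1 had none. Each window was searched over the 250 bases before the start on both strands. A pair of heat shock units was written GAANNTTC or TTCNNGAA, and 12.8% of all 32851 windows held at least 1 such match. A run of 3 units, GAANNTTCNNGAA or its reverse complement TTCNNGAANNTTC, contains overlapping pairs and was found in 0.466% of the windows. The ER stress element was written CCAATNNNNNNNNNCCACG and was found in 0.113%. It contains the NF-Y box CCAAT, which alone was found in 33.8%. A match is a description of the letters and not a bound site. In the stretches below capitals mark heat shock unit pairs, or in Hspa5 the ER stress element, and each is read 5′ to 3′ on the strand of its gene. They end 1 base before the start.
Hspa1a (chr17:34972157-34972356, minus strand): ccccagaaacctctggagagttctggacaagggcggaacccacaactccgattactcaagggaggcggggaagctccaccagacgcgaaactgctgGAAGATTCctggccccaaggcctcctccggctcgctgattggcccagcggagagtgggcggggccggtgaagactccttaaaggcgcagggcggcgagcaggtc
Hspa1b (chr17:34959239-34959438, minus strand): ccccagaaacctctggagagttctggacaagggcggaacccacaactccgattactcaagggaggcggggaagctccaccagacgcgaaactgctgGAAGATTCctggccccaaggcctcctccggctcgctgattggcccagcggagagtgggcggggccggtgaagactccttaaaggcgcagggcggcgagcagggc
Hspb1 (chr5:135887719-135887918, plus strand): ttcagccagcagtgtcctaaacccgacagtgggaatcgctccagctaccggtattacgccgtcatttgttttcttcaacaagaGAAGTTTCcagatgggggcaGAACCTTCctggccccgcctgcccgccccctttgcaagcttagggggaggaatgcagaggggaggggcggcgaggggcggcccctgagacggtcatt
Hspa5 (chr2:34771890-34772089, plus strand): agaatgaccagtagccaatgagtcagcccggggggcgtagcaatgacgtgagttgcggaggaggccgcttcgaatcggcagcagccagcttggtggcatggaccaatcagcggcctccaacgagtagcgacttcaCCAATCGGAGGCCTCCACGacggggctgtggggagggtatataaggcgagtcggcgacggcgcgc
Hspd1 to Hspe1 (chr1:55087933-55088147, plus strand, the strand of Hspe1): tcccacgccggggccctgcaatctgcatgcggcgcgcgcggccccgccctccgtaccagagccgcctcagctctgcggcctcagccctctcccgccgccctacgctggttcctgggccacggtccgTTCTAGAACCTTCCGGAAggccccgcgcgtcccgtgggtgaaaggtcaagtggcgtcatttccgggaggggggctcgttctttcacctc

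Hspa1a and Hspa1b, the stress-induced cytosolic HSP70 genes, had the same letters at 247 of the 250 bases before their starts. The substitutions from Hspa1a to Hspa1b, counted from the first of the 250 bases, were C44T, T47C and T249G, and the last of these falls in the stretch printed. Each has 1 heat shock unit pair, 104 to 97 bases before the start. Hspb1 has 2 such pairs, at 117 to 110 and 97 to 90 bases before its start. Hspd1 and Hspe1 are read away from each other, and Hspd1 has 2 windows. The 215 bases between the Hspd1 start of window 1 and the Hspe1 start hold a continuous array of heat shock units. The array lies 89 to 72 bases before the start of Hspe1. Window 2 of Hspd1 has its start at 55088243, beyond the Hspe1 start at 55088148, and had no match to the motifs searched. In Hspa5 the ER stress element lies 65 to 47 bases before the start. Neither window of Dnajb1 had a match to the heat shock or ER stress motifs as written.

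**Figure D1:**
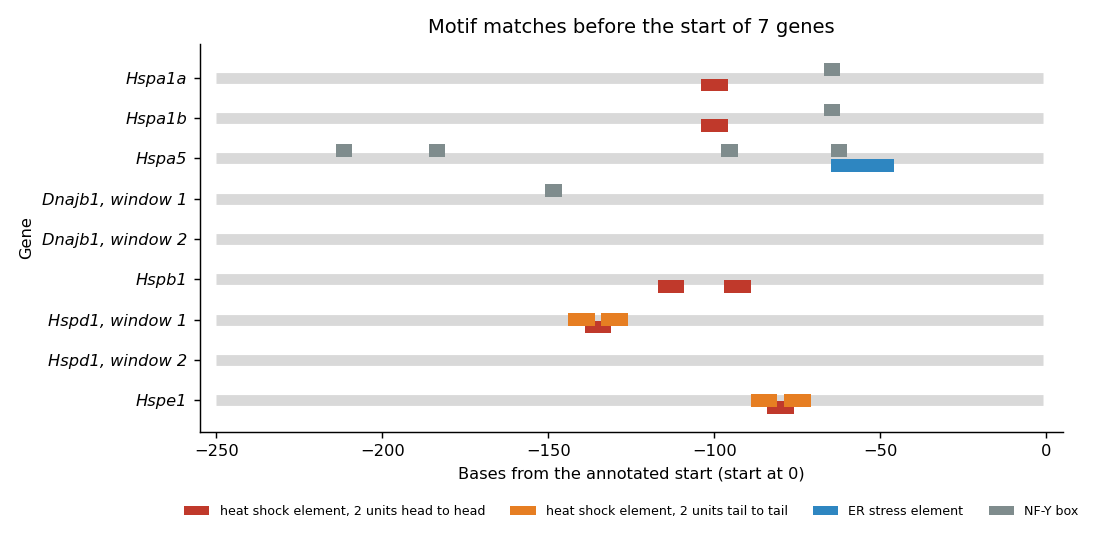
Positions of motif matches in the 250 bases before the annotated start of 7 of the genes, with bases from the start on the horizontal axis and 1 row per RefSeq window. Grey bars are the windows searched and coloured boxes are matches, with the overlapping pairs of the array shared by Hspd1 (window 1) and Hspe1 at 144 to 127 and 89 to 72 bases before their starts.

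Values are FPKM, fragments per kilobase of transcript scaled to the size of the library, which allows levels of different genes to be set side by side per length. Values in parentheses after an FPKM are the interval deposited with it. Depth, inferred from the smallest steps between low values, was about 8440000 to 13340000 reads per library, and such read numbers are approximate. The labels were checked against markers: 6 naive markers summed to 1749 and 1532 FPKM in the ESC libraries and to between 3.70 and 5.44 in EpiSCs, and 5 primed markers to 62.0 and 63.0 in ESCs and to between 373 and 596 in EpiSCs. Markers of other cell types were low in every library: fibroblast markers summed to between 2.70 and 5.89 FPKM, neural ones to between 0.423 and 9.02 and endoderm ones to between 0.357 and 8.11. Trophoblast markers summed to at most 6.80 FPKM, except 14.7 after 24 h of BMP-4. Most of that sum was Cdx2, at 1.55 FPKM in untreated and 13.7 in 24 h EpiSCs. Krt7 went the other way, at 5.25 and 1.00 FPKM. Neurog2 was listed at 0 in all 5 libraries, Col3a1 and Sox17 in ESCs with BMP-4, Col3a1 also in ESCs with serum, and Elf5 in all but the 24 h library. Their part in the results was not tested. In bulk samples fewer cells of a type and less RNA per cell cannot be told apart.

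Most of the 10 genes were among the most abundant transcripts in both cell types. Hsp90aa1 ranked 3 of 23951 genes in both ESC libraries and 8, 8 and 9 in untreated, 1.5 h and 24 h EpiSCs. Hspa8 ranked between 4 and 8, and Hsp90ab1 between 15 and 18. The levels ranged from Hspa1a at 1.05 FPKM to Hsp90aa1 at 8968 FPKM, both in ESCs in LIF and serum. The 10 genes together made up 3.41% and 3.35% of the summed FPKM in ESCs with serum and with BMP-4, and 2.56%, 2.54% and 2.43% in untreated, 1.5 h and 24 h EpiSCs. Without Hsp90aa1 those shares were 2.00%, 1.91%, 1.76%, 1.73% and 1.67%.

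**Figure D2:**
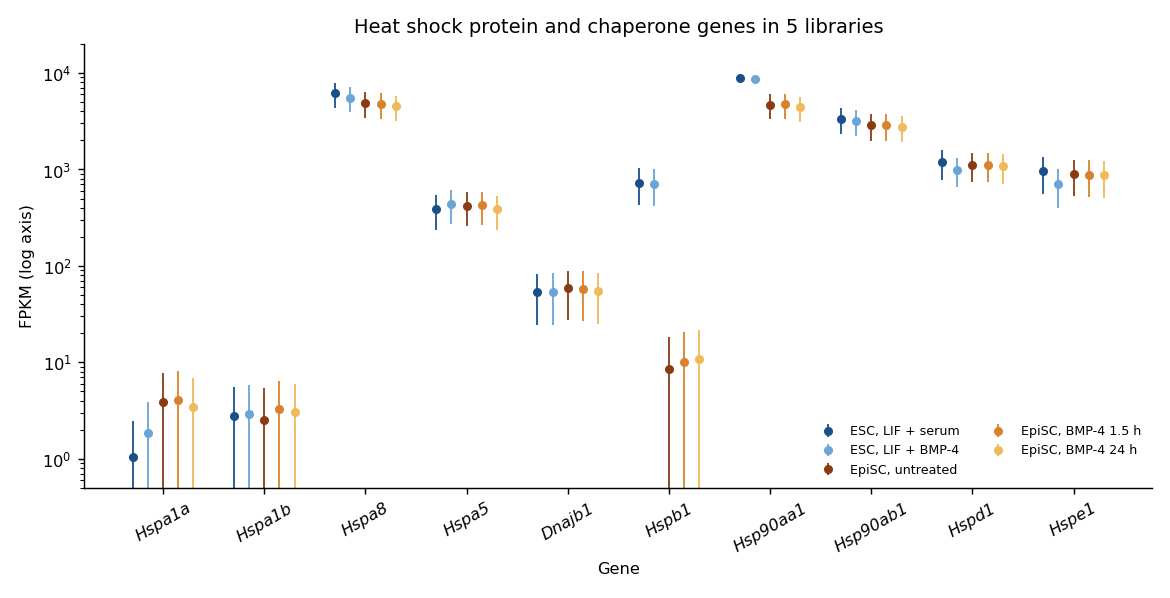
FPKM of the 10 genes on a log axis, 1 point per library, with bars for the deposited interval (cut at the lower edge of the plot where the lower bound lies below it). Hspb1 stands at 733 and 709 FPKM in the ESC libraries and between 8.53 and 10.9 in the 3 EpiSC libraries, and the bars of Hsp90aa1 in ESCs are too short to be seen.

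How far a row can be told from other genes differs between the members. The share of 31-base words of the longest coding transcript that also occur in transcripts of other genes, in GENCODE M21, was 0.0549% for Hspa5 and 0.475% for Dnajb1. It was 16.6% for Hsp90ab1, 55.8% for Hspd1, 58.4% for Hspb1, 59.1% for Hspe1, 62.9% for Hsp90aa1, 68.1% for Hspa1b, 70.1% for Hspa1a and 79.7% for Hspa8. Most of the partners with the largest shares were processed pseudogenes, which are copies of spliced messages. How reads that fit several places were assigned, not given in the sources used here, could move such values, so the levels of the members with high shares are less certain.

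Hspa8 (Hsc70; mm9 chromosome 9, 40609356 to 40613282) is the constitutive cytosolic HSP70 and was the most abundant HSP70 gene. It stood at 6153 FPKM (4365 to 7942) in ESCs in LIF and serum and at 5542 (3916 to 7169) with BMP-4. In EpiSCs it stood at 4866 (3425 to 6307) untreated, 4768 after 1.5 h and 4505 after 24 h. The 3 EpiSC values lie below both ESC values, with overlapping intervals throughout, and the difference between untreated EpiSCs and ESCs in serum was -0.34 on the log2(FPKM + 1) scale.

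The inducible pair stood far below. Hspa1a (chromosome 17, 35106304 to 35109101) was listed at 1.05 FPKM (0 to 2.45) and 1.84 (0 to 3.92) in ESCs with serum and with BMP-4, and at 3.92 (0.0494 to 7.79), 4.09 and 3.47 in untreated, 1.5 h and 24 h EpiSCs. At the estimated depth these are about 26.2, 47.1, 114, 132 and 137 reads. All 3 EpiSC values of Hspa1a lie above both ESC values, with overlapping intervals, and the upper bounds lie 96.7% to 134% above the values. Hspa1b (chromosome 17, 35093374 to 35096183) stood at 2.75, 2.90, 2.53, 3.30 and 3.03 FPKM in the same order and showed no such split. Hspa1a and Hspa1b share 63.8% of the words of Hspa1a, so their reads may be divided between the rows. Their sum was 3.80, 4.74, 6.44, 7.39 and 6.50 FPKM, still lowest in ESCs. Hspa8 was at 1619 times that sum in ESCs with serum and at 755 times in untreated EpiSCs.

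Hspa5 (BiP; chromosome 2, 34627610 to 34632049) is the HSP70 of the ER and a marker of the unfolded protein response. It stood at 391 FPKM (238 to 544) in ESCs with serum, 441 (272 to 611) with BMP-4, and 423, 426 and 386 in untreated, 1.5 h and 24 h EpiSCs. The cell types overlap, and the highest value was 1.14 times the lowest. Dnajb1 (Hsp40; chromosome 8, 86132074 to 86135802), the J-domain partner of cytosolic HSP70 and a heat shock gene, varied least among the 10. Its levels were 53.9 FPKM (24.4 to 83.4), 54.4, 58.5, 57.3 and 54.6 in the same order of libraries, with the highest 1.09 times the lowest. These are the members whose letters are shared least with other genes.

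Hspb1 (Hsp25; chromosome 5, 136363789 to 136365433), the small heat shock protein, differed most. It stood at 733 FPKM (429 to 1036) in ESCs with serum and 709 (415 to 1003) with BMP-4. In EpiSCs it stood at 8.53 FPKM (0 to 18.2) untreated, 10.2 (0 to 20.6) after 1.5 h and 10.9 (0 to 21.7) after 24 h. The libraries fall into separate ranges by cell type with intervals far apart. The ratio of FPKM between ESCs in serum and untreated EpiSCs was 85.9, and the log2 difference of -6.27 ranked 22 from the lowest among 11007 genes. Against ESCs with BMP-4 the difference was -6.22, at rank 23. This gene was picked for a difference already seen, so these values describe it and test nothing. Its transcript shares 56.7% of its words with the pseudogene Hsp25-ps1 and 46.2% with Gm9817, a gene annotated as protein coding. The table has no row under either symbol, so a sum with them could not be formed.

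The HSP90 paralogs of the cytosol differed from each other in this respect. Hsp90aa1 (chromosome 12, 111929246 to 111934605), the stress-responsive form, stood at 8968 FPKM (8933 to 9004) and 8745 (8710 to 8780) in ESCs with serum and with BMP-4. It stood at 4696 (3344 to 6048) in untreated EpiSCs, 4732 (3371 to 6093) after 1.5 h and 4406 (3125 to 5687) after 24 h. The ratio of FPKM between ESCs in serum and untreated EpiSCs was 1.91, which is 1.75 when each library is scaled to the same summed FPKM. Hsp90ab1 (chromosome 17, 45704727 to 45710210), the constitutive form, stood at 3314 FPKM (2320 to 4309), 3190, 2863, 2860 and 2762 in the same order, with overlapping intervals and its highest value 1.20 times its lowest. The ratio of Hsp90aa1 to Hsp90ab1 was accordingly 2.71 and 2.74 in ESCs and 1.64, 1.65 and 1.59 in EpiSCs.

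The deposited intervals of Hsp90aa1 were unlike those of other abundant genes. They reached 0.397% and 0.402% above the value in the ESC libraries, against 28.8%, 28.8% and 29.1% in EpiSCs. Of 11011 genes that averaged at least 1 FPKM, 5 and 6 had such a distance under 5% in the 2 ESC libraries. Other genes of at least 1000 FPKM in ESCs with serum had a median distance of 36.8%. That median was put in place of its own, an alternative added after seeing the data. The interval in ESCs with serum would then be 5667 to 12270 FPKM and would overlap that of untreated EpiSCs. This overlap depends on the width chosen, since the median is wider than the 28.8% of Hsp90aa1 itself in untreated EpiSCs. It is also wider than the 29.1% of Hspa8 in ESCs with serum, and these narrower widths were not tried. The 2.49% lower value with BMP-4 than with serum also had intervals apart as deposited, and these would overlap under the same widening.

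Hspd1 (Hsp60; chromosome 1, 55134678 to 55144776) and Hspe1 (Hsp10; chromosome 1, 55144992 to 55148161) encode the mitochondrial chaperonin and its lid and lie 215 bases apart in mm9. Hspd1 stood at 1184 FPKM (786 to 1581) in ESCs with serum, 990 (652 to 1327) with BMP-4, and 1120, 1112 and 1081 in untreated, 1.5 h and 24 h EpiSCs. Hspe1 stood at 956 FPKM (563 to 1350), 699 (398 to 1001), 896, 884 and 874. Both were lowest in ESCs with BMP-4 and highest in ESCs with serum, with overlapping intervals. The ratio of Hspd1 to Hspe1 was 1.24, 1.42, 1.25, 1.26 and 1.24 in the same order of libraries. The array of heat shock units printed above lies between the Hspe1 start and the Hspd1 start of window 1.

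Comparing untreated EpiSCs with ESCs in LIF and serum asks how the naive and primed states differ. State and culture conditions changed together between EpiSCs and either ESC group, so their parts cannot be told apart. In this comparison 1 of the 10 genes was at least 2-fold higher (Hspa1a, 1.26 on the log2 scale) and 1 was at least 2-fold lower (Hspb1). Among all 11007 genes compared 21.1% were called, 11.6% higher and 9.55% lower, and the members were picked with this contrast in view, so nothing is read from their share. Intervals were apart, at any fold, for Hspb1 and Hsp90aa1, beside 5.53% of all genes. Folds and calls are on log2(FPKM + 1), which understates the change of low genes such as Hspa1a. The median difference was -0.09 over the 10 genes and -0.01 over all genes. Hsp90aa1 (-0.93) lay just inside the 2-fold limit. Scaling each library to the same summed FPKM, which raised the median of all genes by 0.12 in this comparison, turned the small negative differences of Hspd1 (-0.08), Hspe1 (-0.09) and Hspa1b (-0.09) to small positive ones.

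**Figure D3:**
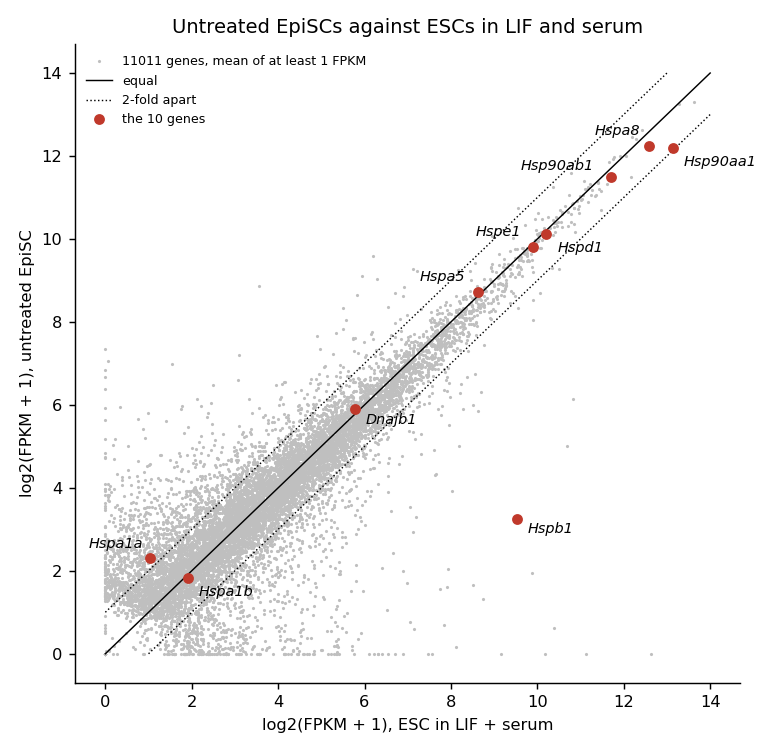
Level in untreated EpiSCs against level in ESCs in LIF and serum, both as log2(FPKM + 1), for 11011 genes that averaged at least 1 FPKM (grey) and the 10 genes (red). Solid and dotted lines mark equal levels and 2-fold differences, and Hspb1 lies far below the lower dotted line while Hspa1a lies above the upper one.

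Against ESCs in LIF and BMP-4, 1 of the 10 genes, Hspb1, was at least 2-fold lower in untreated EpiSCs and 0 were higher, beside 21% of 11007 genes called, 11% higher and 10% lower. Intervals were apart for Hspb1 and Hsp90aa1, beside 5.51% of all genes, and those of Hsp90aa1 would overlap here too with the wider ESC interval (5481 to 12009 FPKM). Hspa1a differed by 0.79 and Hsp90aa1 by -0.90. The comparisons of EpiSCs with each ESC library share the untreated EpiSC library, so they are not independent of each other.

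Between the ESC libraries, where serum was exchanged for BMP-4 in basal medium, 0 of the 10 genes were 2-fold apart, beside 3.89% of 11010 genes, 2.61% higher and 1.28% lower. Intervals were apart for Hsp90aa1 alone, beside 0.209% of all genes. The differences ran from -0.45 for Hspe1 to 0.47 for Hspa1a, with a median of -0.04 over the 10 genes and -0.02 over all genes. Hspb1 (-0.05), Hsp90aa1 (-0.04) and Hsp90ab1 (-0.06) were close to equal, and these turned to small positive values under the scaling to the same summed FPKM. Hspe1 and Hspd1 (-0.26) were the lower members and Hspa5 (0.17) stood slightly higher with BMP-4.

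**Figure D4:**
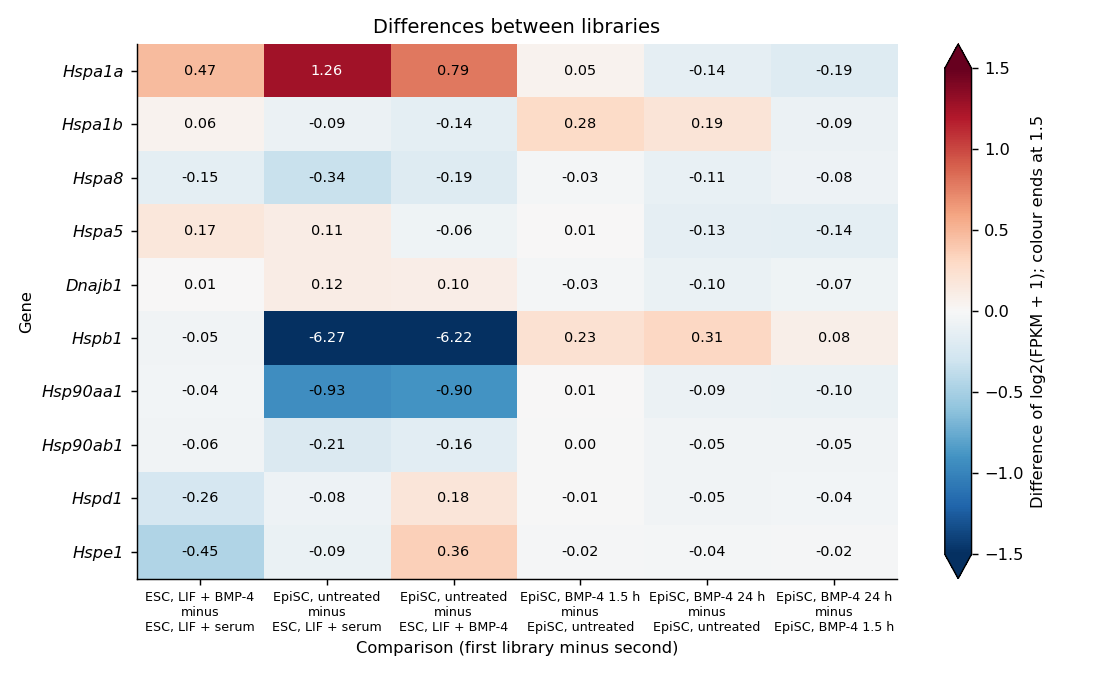
Differences of log2(FPKM + 1) for the 10 genes (rows) in 6 comparisons (columns, first library minus second), with the value in each cell and colours that end at 1.5 in either direction. The large values stand in the columns that set EpiSCs against ESCs, and the 3 columns of BMP-4 in EpiSCs range from -0.19 to 0.31.

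In EpiSCs, BMP-4 was compared with no treatment to describe the early and later response in the primed state, and the chaperone genes stood close to their untreated levels. After 1.5 h 0 of the 10 genes were 2-fold apart, beside 0.418% of 11007 genes, and the differences ran from -0.03 for Dnajb1 to 0.28 for Hspa1b. The median was 0.00 over the 10 genes and 0.00 over all genes. After 24 h 0 of 10 were 2-fold apart, beside 1.18% of 11006 genes, with differences from -0.14 for Hspa1a to 0.31 for Hspb1 and a median of -0.07, beside 0.00 over all genes. At 24 h 8 of the 10 genes stood below their untreated value, as did 50.2% of all genes, and Hspb1 and Hspa1b stood above. Between 24 h and 1.5 h 0 of 10 were 2-fold apart, beside 1.04% of 11007 genes, and 9 of the 10 stood lower at 24 h, by at most 0.19 (Hspa1a), with Hspb1 (0.08) higher. Of all genes 49.5% stood lower in that comparison, and the median was -0.07 over the 10 genes and 0 over all genes. The members are not independent of each other, and a tally of signs in single libraries has no replicate check. The intervals of all 10 genes overlapped in these 3 comparisons, while 0.0273% of all genes at 1.5 h, 0.0818% at 24 h and 0.0545% between the times had intervals apart, and the 2 comparisons with untreated EpiSCs share that library.

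The rest of the chaperone network was followed through 8 lists of 125 other genes, of which 124 were found and 111 averaged at least 1 FPKM. Such a gene can pass that mean through the cell type in which it is high. In untreated EpiSCs against ESCs in serum 6 of the 111 were at least 2-fold higher and 9 lower, which is 13.5% beside 21.1% of all genes. The median over the lists was -0.18.

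Co-chaperones of HSP70 and HSP90 held the highest of these differences. Of 22 such genes 3 were higher and 2 lower (median -0.13). Bag3, a nucleotide exchange factor of HSP70 that binds small heat shock proteins, stood at 9.28 FPKM (2.18 to 16.4) in ESCs with serum, 12.3 with BMP-4, and 41.5 (18.6 to 64.5), 40.5 and 41.3 in untreated, 1.5 h and 24 h EpiSCs. Its intervals were apart against serum, and it was the opposite of Hspb1 in direction. Ahsa2 (27.5 and 72.0 FPKM in ESCs with serum and untreated EpiSCs) and Bag2 (1.42 and 4.33) were also higher. The HSP90 co-chaperones Fkbp5 (63.2 and 25.2 FPKM) and Chordc1 (147 and 61.3) were lower. The intervals of these 4 overlapped. Stip1, which links HSP70 to HSP90, is an abundant member of the list and stood at 417 and 438 FPKM.

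In the list of other small heat shock genes 3 passed the mean. Hspb11 was higher (4.34 and 18.0 FPKM in ESCs with serum and untreated EpiSCs) and the lens crystallin Cryab lower (2.73 and 0.424), with overlapping intervals. Hspb11 was listed by its symbol, and whether it belongs to that family was not checked. Of the 5 other HSP70 genes Hspa4l was higher (1.91 and 8.02 FPKM) and 0 were lower. Of 22 other J-domain genes 3 were lower and 0 higher (median -0.13): Dnajc6, an auxilin that acts in uncoating of clathrin vesicles (3.78 and 0.0382 FPKM), Dnajc21 (130 and 40.0) and Dnajc13 (39.6 and 17.8). The intervals were apart for Dnajc6 and Dnajc21.

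Chaperonin, organelle and regulatory genes are given beside the same 21.1% of all genes called. Of the 13 genes of the TRiC chaperonin, which folds actin and tubulin, and of prefoldin, 0 were 2-fold apart (median -0.18), and Cct5 stood at 1055 and 1047 FPKM. Of 14 other mitochondrial genes 1 was lower, Hscb (20.4 and 7.89 FPKM), a J-domain protein of iron-sulfur cluster assembly, and 0 higher, with a median of -0.48. Of 21 other ER genes 1 was higher, the J-domain gene Dnajc3 (6.45 and 18.4 FPKM), and 0 lower (median 0.16). Of 11 regulators 2 were lower, Ddit3 (10.2 and 3.97 FPKM), a transcription factor of ER stress, and Hspbap1 (29.9 and 10.4), and 0 higher (median -0.20). The intervals of Hscb, Dnajc3, Ddit3 and Hspbap1 overlapped.

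**Figure D5:**
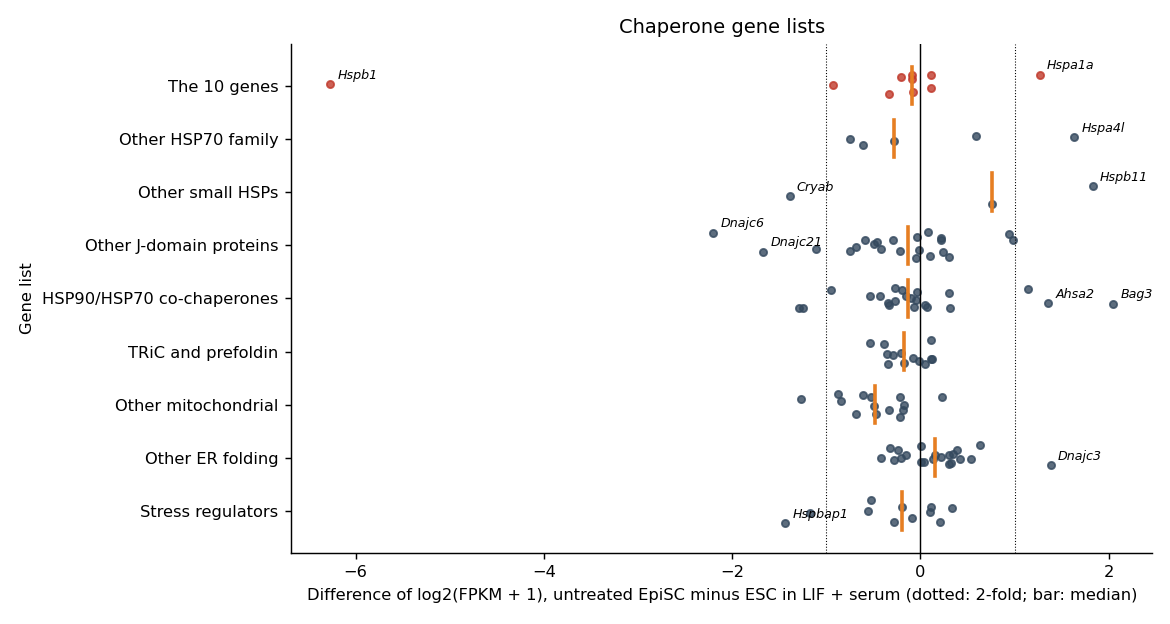
Difference of log2(FPKM + 1) between untreated EpiSCs and ESCs in LIF and serum for the 10 genes (red) and the 111 other genes in 8 lists (grey-blue), 1 point per gene, with names of the 10 beyond 1 and of other genes beyond 1.3 in either direction. Orange bars are list medians, which lie between -0.48 for other mitochondrial genes and 0.76 for the list of other small heat shock genes. That list has 3 genes here, Hspb11 among them, and Hspb1 lies apart at -6.27.

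Against ESCs in LIF and BMP-4 6 of 111 genes were higher in untreated EpiSCs and 6 lower, 10.8% beside 21% of all genes. Hspb11 (2.06 on the log2 scale), Bag3 (1.68), Hspa4l (1.47) and Ahsa2 (1.36) were again higher. Fkbp5 was lower with intervals apart (74.9 and 25.2 FPKM). Besides Fkbp5, intervals were apart for 1 of the genes called, a J-domain gene. Not called against serum, the J-domain gene Dnajc9 was higher here (78.2 and 198 FPKM) and the regulator Xbp1 lower (24.0 and 8.35). Between the ESC libraries Xbp1, a transcription factor of the unfolded protein response, was higher with BMP-4 (9.72 and 24.0 FPKM) and Cryab lower (2.73 and 0.778), 1 each of 111, both with overlapping intervals, which is 1.80% beside 3.89% of all genes. In EpiSCs 0 of 110 genes were 2-fold apart after 1.5 h of BMP-4, beside 0.418% of all genes, and 0 of 111 after 24 h, beside 1.18%. Hsf1, which encodes the main heat shock factor, stood at 7.32, 10.1, 8.62, 9.52 and 8.06 FPKM and Hsf2 at 29.9, 30.6, 38.1, 35.2 and 34.9, in the order ESCs with serum, ESCs with BMP-4, and untreated, 1.5 h and 24 h EpiSCs.

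For the 3 members whose log2(FPKM + 1) spanned at least 1, the genes with the nearest profile over the 5 libraries were sought among 7363 genes, by Euclidean distance after centring. With 5 libraries in 2 cell types many genes have a close profile, so the names are a description. Nearest to Hspb1 were Tcl1 (distance 0.20 in log2 units; 73.1 and 65.3 FPKM in ESCs, at most 0.0682 in EpiSCs), Fabp3 (0.34; 213 and 218 in ESCs, at most 2.34 in EpiSCs) and Mylpf (0.38). Nearest to Hsp90aa1 were Wsb2 (0.04), Rfc5 (0.07) and Gtf2h1 (0.08). Nearest to Hspa1a were Jag2 (0.06; 3.10 and 4.86 FPKM in ESCs and 8.89, 9.64 and 8.28 in untreated, 1.5 h and 24 h EpiSCs), Map1b (0.10) and Ahcy (0.10).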

How the data were processed

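RNA of 5 libraries was measured as FPKM per gene, deposited by the authors with a lower and an upper bound and a status per value, per the file headers. Per the submitters' processing notes TopHat and Cufflinks (given as 2.0.13) were used on the mm9 build, with Picard and SAMtools also named. Annotation, filters and scaling between libraries: not given in the sources used here. Cufflinks defines such bounds as 95% limits. All members had the status OK in every library, and 8 genes without it somewhere were left out of comparisons that used that library. Differences were taken of log2(FPKM + 1) over genes that averaged at least 1 FPKM, in Python 3.11.15 with pandas 2.3.3, and at least 2-fold was called higher or lower. The script was tested on simulated data with changes beyond the 2-fold limit in well expressed genes. That tests neither low genes such as Hspa1a nor the intervals. The deposited FPKM values are not counts, so no count test was run, and reads were estimated from the FPKM worth of 1 read at values below 0.5 in genes with 1 transcript longer than 1500 bases. Depth limits low genes such as Hspa1a most. The members and the lists were chosen with earlier results of these data known. Named genes are the 10 members, up to 4 higher and 4 lower genes per list and comparison (otherwise chosen after their values were seen, as with Stip1, Cct5, Hsf1, Hsf2, Hspa4 and Hspa9), and the 3 nearest profiles, sought among genes averaging at least 5 FPKM that are neither small RNAs nor predicted genes. File starts count from 0 and were written from 1. Alternatives were other pseudocounts, filters, fold limits and scalings, and a sum of Hspa1a and Hspa1b.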

Additional observations from a re-analysis of the deposited data

How the results depend on the processing

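The difference of Hspb1 between EpiSCs and ESCs kept its direction and its call under every pseudocount, filter, scaling and fold limit tried, and 0 of 10 genes were 2-fold apart between the ESC libraries or under BMP-4 in EpiSCs in each of them. Of 48 alternative counts of genes apart, 43 stayed within 1.5 times the main one. For untreated EpiSCs against ESCs in serum the count of 2 became 1 with a pseudocount of 5 FPKM and when genes had to average 5 FPKM. The same happened with Hspa1a and Hspa1b summed, and each time Hspa1a was lost. At a fold of 1.5 that count became 3 (Hsp90aa1 added), which was taken as within 1.5 times the main one. Against ESCs in LIF and BMP-4 the count of 1 became 2 with a pseudocount of 0.1 FPKM (Hspa1a added) and 3 at a fold of 1.5 (Hspa1a and Hsp90aa1 added). The median over the 10 genes for EpiSCs against ESCs in serum moved from -0.09 to 0.0199 when FPKM were scaled to the same sum, an alternative chosen after seeing the data. Of 42 alternative medians the other 41 moved by at most 0.1. A sum of Hspb1 with genes that share its letters was not run, since the table has no row under their symbols. No paired analysis was possible because there was a single library per group. No library could be left out for the same reason, and no spread between cultures is known. Counts of all genes called moved by over 1.5 times under several choices. In the order ESCs with BMP-4 against serum, EpiSCs against serum, EpiSCs against ESCs with BMP-4, 1.5 h, 24 h and 24 h against 1.5 h, the main counts were 428, 2323, 2313, 46, 130 and 114. They were 152, 1062, 1096, 30, 65 and 55 with a pseudocount of 5 FPKM, 242, 1323, 1299, 30, 67 and 67 when genes had to average 5 FPKM, and 1456, 4217, 4137, 130, 434 and 369 at a fold of 1.5. With a pseudocount of 0.1 FPKM the counts that moved this far were 880 between the ESC libraries, 128 at 1.5 h, 296 at 24 h and 238 between the times, and with scaling to the same sum 644 between the ESC libraries and 201 at 24 h. With no filter on low values more genes were compared, and the shares called fell to 2.15%, 10.8%, 11.1%, 0.246%, 0.622% and 0.530% in the same order. Overlap of the intervals of Hsp90aa1 followed from the widening described with its values. The deposited intervals at 2 to 5 FPKM reach about 99.4% above the value in ESCs with serum, which limits Hspa1a and Hspa1b.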

Other observations

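Hspb8, a small heat shock protein that forms a complex with Bag3, stood highest after 24 h of BMP-4 and was picked after its values were seen. On log2(FPKM + 1) it stayed within 2-fold in each of the 6 comparisons, at 0.95 for 24 h against untreated EpiSCs. The 1 FPKM added to each value makes that difference smaller than the one between the plain FPKM of Hspb8. Its levels were 3.38 and 4.38 FPKM in ESCs with serum and with BMP-4. In untreated, 1.5 h and 24 h EpiSCs they were 6.44, 8.44 and 13.4 FPKM. The intervals of Hspb8 overlapped between untreated (0.0835 to 12.8) and 24 h (2.51 to 24.3) EpiSCs. Hspb11, also picked after its values were seen here, stood at 18.0, 25.5 and 30.4 FPKM in the same EpiSC libraries. Its intervals overlapped too, 0 to 38.4 untreated and 0 to 60.9 after 24 h. Whether Hspb11 belongs to the small heat shock family was not checked. Levels of HSP70 relatives went both ways between the cell types, in genes likewise picked after their values were seen. Hspa4 stood at 693 and 652 FPKM in ESCs and at 413, 415 and 414 in EpiSCs, and the mitochondrial HSP70 Hspa9 at 711 and 532 in ESCs and at 396, 378 and 357 in EpiSCs, both within 2-fold between untreated EpiSCs and ESCs in serum. Hspa4l, at 1.91 and 2.25 FPKM in ESCs and 8.02, 8.53 and 7.59 in EpiSCs, stood the other way. Hsph1 stood at 212 and 131 FPKM in ESCs and at 138, 129.7 and 129 in EpiSCs, highest in ESCs with serum.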
